A study of Mus musculus with 8 samples.

Results

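The cadherins and protocadherins were taken as every gene of the deposited table whose symbol is Cdh followed by a number or begins with Pcdh. That gave 57 of 24942 genes: 21 numbered cadherins and 36 protocadherins. The cadherins comprised 5 type I and 12 type II classical genes and 4 others. The protocadherins comprised 22 beta genes, 1 entry each for the alpha and gamma clusters, and 12 genes outside the clusters. Cdh5 and Cdh16 were not analysed here.

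The cells were retinal ganglion cells, the neurons whose axons form the optic nerve, of mice at postnatal day 8 on the strain BALB/cNctr-Npc1m1N/J. Immunopanning, the capture of cells on dishes coated with an antibody against them, separated these neurons from the rest of the retina, and RNA was extracted straight from the dish with no days in culture. Wildtype littermates gave 4 libraries and NPC1-deficient mice another 4, and no treatment is named for either. The NPC1-deficient mice lack the lysosomal membrane protein that hands cholesterol on from the lysosome, in every cell and not in ganglion cells alone. The comparison asks what this loss does to gene expression in the neuron. Whether a library came from a single animal or from a pool is not in the labels, so the tests measure only the spread between these libraries.

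Cadherins are calcium-dependent adhesion proteins of the cell surface that bind through repeated extracellular domains. Classical cadherins hold on to catenins and through them to actin, whereas protocadherins lack the catenin-binding tail. The alpha and gamma clusters splice alternative first exons, each with its own promoter, to shared last exons, while each beta gene makes its protein from a single exon, and a neuron uses only some of these promoters. In the retina, type II cadherins guide axons and dendrites to their layers, and gamma protocadherins act in the self-avoidance of dendrites and in the survival of neurons.

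The sequence just upstream of a RefSeq transcription start is shown for 6 members outside the clusters. It sets genes with many and with few CpG dinucleotides side by side, since clustered CpG marks a common type of mammalian promoter. Each run is the 250 bases before the RefSeq start on GRCm38.p6, 5′ to 3′ on the gene's strand, with every CG in capitals. In GENCODE M21, used below for exon lengths, Cdh15, Cdh10 and Cdh18 begin farther upstream, at 122847966, 18818947 and 22549022. Their runs therefore lie inside the annotated gene. Cdh15, Cdh10, Cdh18, Pcdh8 and Pcdh19 were taken by level or smallest p within their class among the 22 members with a RefSeq promoter, and Cdh26 was chosen after its values were seen.

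Cdh15 (chr8:122848124-122848373, plus strand): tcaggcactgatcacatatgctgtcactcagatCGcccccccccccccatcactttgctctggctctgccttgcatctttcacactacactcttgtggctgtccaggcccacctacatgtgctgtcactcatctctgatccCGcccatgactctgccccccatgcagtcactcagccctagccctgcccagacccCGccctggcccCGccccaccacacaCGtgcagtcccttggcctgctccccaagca
Cdh10 (chr15:18820079-18820328, plus strand): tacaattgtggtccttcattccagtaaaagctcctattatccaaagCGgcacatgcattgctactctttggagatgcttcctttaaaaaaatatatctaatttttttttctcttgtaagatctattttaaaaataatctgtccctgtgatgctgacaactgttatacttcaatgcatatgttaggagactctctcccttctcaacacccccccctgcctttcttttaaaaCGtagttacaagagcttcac
Cdh18 (chr15:23036213-23036462, plus strand): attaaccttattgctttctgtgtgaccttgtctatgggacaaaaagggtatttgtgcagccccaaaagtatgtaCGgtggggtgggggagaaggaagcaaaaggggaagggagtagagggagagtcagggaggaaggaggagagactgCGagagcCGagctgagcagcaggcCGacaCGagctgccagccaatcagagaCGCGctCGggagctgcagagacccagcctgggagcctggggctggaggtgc
Cdh26 (chr2:178430265-178430514, plus strand): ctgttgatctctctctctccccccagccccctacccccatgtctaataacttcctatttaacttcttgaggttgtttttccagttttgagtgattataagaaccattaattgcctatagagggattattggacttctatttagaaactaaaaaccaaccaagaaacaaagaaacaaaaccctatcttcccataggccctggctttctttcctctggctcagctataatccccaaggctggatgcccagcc
Pcdh8 (chr14:79771313-79771562, minus strand): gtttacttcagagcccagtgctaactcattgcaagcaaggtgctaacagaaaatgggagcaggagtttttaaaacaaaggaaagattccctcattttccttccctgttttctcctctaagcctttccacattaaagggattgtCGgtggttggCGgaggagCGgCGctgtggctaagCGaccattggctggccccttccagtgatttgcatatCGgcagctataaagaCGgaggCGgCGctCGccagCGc
Pcdh19 (chrX:133688994-133689243, minus strand): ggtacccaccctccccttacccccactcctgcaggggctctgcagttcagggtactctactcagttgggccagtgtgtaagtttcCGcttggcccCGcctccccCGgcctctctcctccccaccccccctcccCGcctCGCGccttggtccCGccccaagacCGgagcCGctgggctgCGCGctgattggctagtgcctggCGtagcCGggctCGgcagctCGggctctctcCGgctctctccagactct

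Promoters were found in the RefSeq table for 22 of the 57 members. Searching the 250 upstream bases for CG, which reads the same on both strands, gave 0 matches for Cdh26, 2 for Cdh10, 5 for Cdh15, 8 for Cdh18, 11 for Pcdh8 and 16 for Pcdh19. At least 10 were present in 11 of the 22 members (50%), each taken at its most upstream RefSeq start. Over all genes, where every start was counted, 37.8% of 32851 promoters had as many, so the 2 shares count unlike units. Cdh7 had 3 starts with 3 to 17 CpG. Levels per length were higher on the CpG-rich side: the median over both groups was 144 normalized reads per kb of exon for those 11 members and 46.9 for the other 11. Across the 22 genes the Spearman correlation between CpG number and level per kb was 0.54, a description over genes of the same 8 libraries. Several genes did not follow that order. With few CpG before the RefSeq start, Cdh10 (2 CpG) had 100.1 reads per kb and Cdh18 (8 CpG) had 160.5. With many, Cdh24 (22 CpG) had 38.0 reads per kb, Pcdh17 (21 CpG) had 74.8 and Cdh22 (30 CpG) had 75.6.

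Read totals per library ran from 33030175 to 44050118, and values below are read counts divided by the authors' size factor of each library. Npc1 read 707, 754, 831 and 857 across wildtype 1 to 4, against 139.8, 70.1, 67.6 and 66.1 across NPC1-deficient 1 to 4. Its log2 fold change, -3.25 with an SE of 0.20, had a limma adjusted p of 3.23e-05. With 70 possible assignments, p was 0.0286 in a two-sided exact permutation test, its lowest possible value. A characteristics field contradicts the titles: there, the libraries numbered 1 and 2 are wildtype in either group, and those numbered 3 and 4 are homozygous. The titles were followed, and the field's split is used below as 2 library sets. NPC1-deficient 2 stood apart from its group: the chi-square of read counts per degree of freedom was 43.9 to 50.3 for its pairs, against 4.27 to 21.6 for the other pairs of that group. All 13 ganglion cell markers were present, with a summed level between 408890 and 428450 for wildtype and between 425410 and 453890 for NPC1-deficient libraries. Summed markers of 4 other cell types were lower in every NPC1-deficient library than in every wildtype library. The 10 rod genes summed to 2685 to 7000 in the wildtype group against 1620 to 2304, and the 7 endothelial genes to 485 to 668 against 320.2 to 360.4. The 5 horizontal cell genes summed to 1229 to 2119 against 841 to 1041, and the 10 genes of Müller glia and astrocytes to 12554 to 13418 against 9960 to 11253. All 10 rod and all 7 endothelial genes had a lower NPC1-deficient mean. So did 4 of the 5 horizontal cell genes and 6 of the 10 glial genes. Kdr, Calb1 and Glul were the largest parts of the endothelial, horizontal cell and glial sums. Pecam1 (47.4 to 56.9 against 46.9 to 54.7), Onecut2 (36.8 to 109 against 72.0 to 97.1) and Vim (1705 to 2040 against 1396 to 2302) overlapped. Sums that were lower with overlap were those of microglia (12 genes, 3559 to 14436 against 2562 to 4109), amacrine cells (10 genes, 13517 to 16397 against 12277 to 13750.0), bipolar cells (8 genes, 2744 to 4016 against 2548 to 2861) and cones (6 genes, 42.2 to 209.7 against 45.4 to 100.7). The largest part of the amacrine sum was Pax6, at 10988 to 11560 against 10793 to 11834. Of the 10 amacrine genes, 8 had a lower NPC1-deficient mean. Lower without overlap were Gad1 (662 to 1692 against 191 to 584), Slc32a1 (320 to 856 against 107 to 267), Tfap2b (493 to 1040 against 178 to 437) and Tfap2a (147.1 to 312 against 36.3 to 146.6). In RNA from many cells, fewer cells of a type and less RNA per cell cannot be told apart.

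Ganglion cells of both genotypes held a broad set of these adhesion genes, led per length by Pcdh8 and Pcdhb9 among the 51 members with a usable length, which leaves out the alpha and gamma entries. Of the 57 members, 53 reached a mean of 10 normalized reads and were tested. Counted per kb of exon, the highest members were Pcdh8 at 750.0, Pcdhb9 at 747, Pcdh10 at 507, Cdh2 at 491 and Pcdhb17 at 464 reads per kb. The median over the 51 members with a usable length was 122 reads per kb, beside 113 over all genes tested. The 4 members under the minimum were Cdh17, Cdh19, Pcdhb1 and Pcdh12. Cdh19, a cadherin of glial cells that wrap peripheral nerves, read 0.93 in wildtype 3 and 0 in the other 7 libraries, where 0 allows up to 2.69 to 3.42 depending on the library (3 reads, counting error only). Cdh17, known from gut, reached at most 7.46, Pcdhb1 at most 3.42, and Pcdh12, known from endothelium, at most 1.79.

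**Figure D1:**
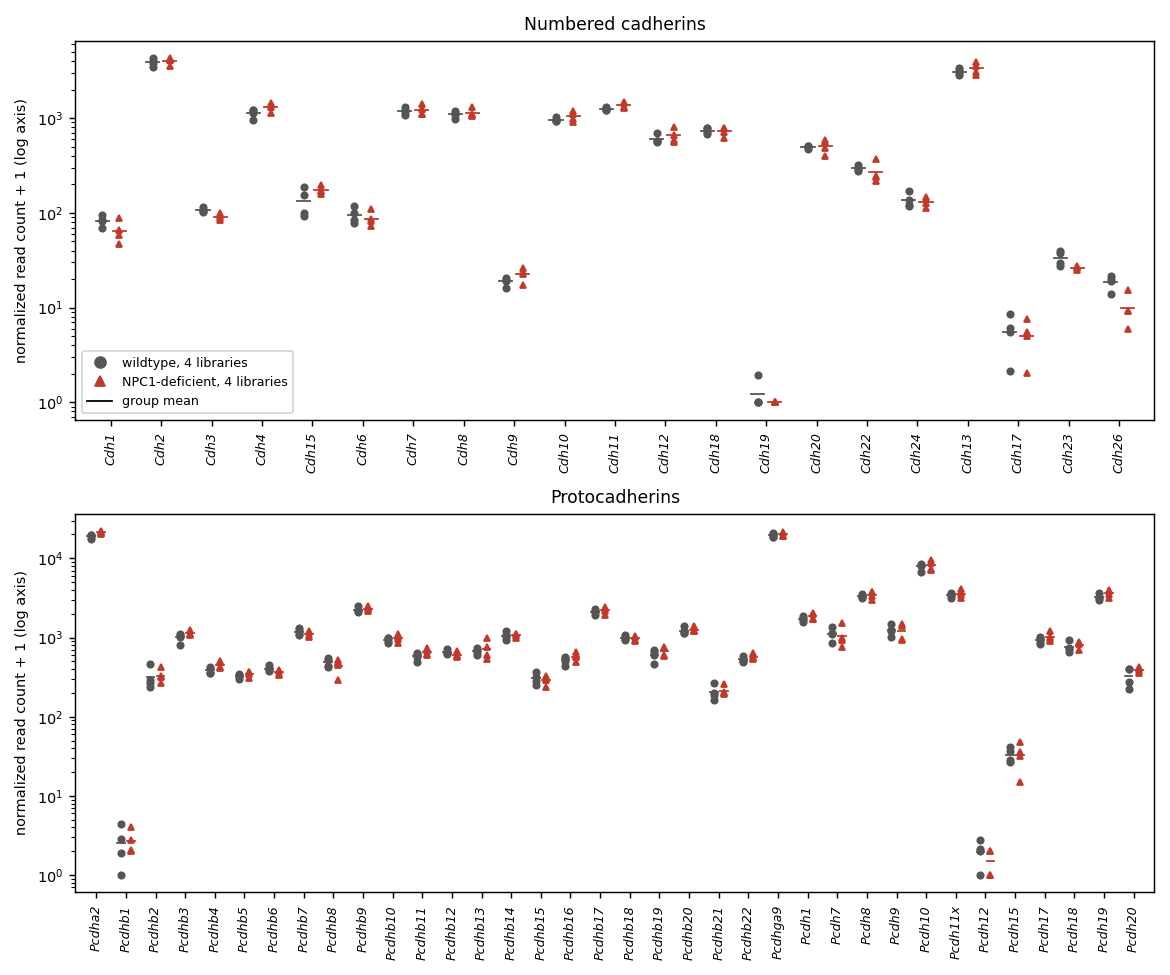
Normalized read count plus 1 on a log axis for each of the 57 members (numbered cadherins above, protocadherins below), with circles for the 4 wildtype libraries, triangles for the 4 NPC1-deficient libraries and a line at each group mean. Levels span from listed values of 0 to 22300.3 in the alpha entry, and within a gene the symbols of the 2 groups lie close to each other for most members.

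No cadherin or protocadherin differed past the threshold between the genotypes: limma, at a Benjamini-Hochberg adjusted p under 0.05 over all genes tested, called 0 of the 53 members tested, against 16 of 15386 genes (0.104%). edgeR also called 0 members, where its share of all genes was 0.104%, and DESeq2 called 0, where its share was 1.60%. At an unadjusted p under 0.05 there were 4 members (7.55%), the alpha cluster entry, Cdh26, Pcdhb4 and Cdh4, beside 6.76% of all genes, and the smallest adjusted p was 0.347. The precision bounds the differences that could have been missed: the 95% interval of the log2 fold change lay within 1.5-fold in both directions for 46 of 53 members (86.8%), beside 77.9% of all genes. Cdh26 was the only member whose interval reached beyond 2-fold in either direction. Groups did not overlap for 1 member that was higher in NPC1-deficient libraries, beside 1.86% of all genes, and for 2 that were lower, beside 2.41%.

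**Figure D2:**
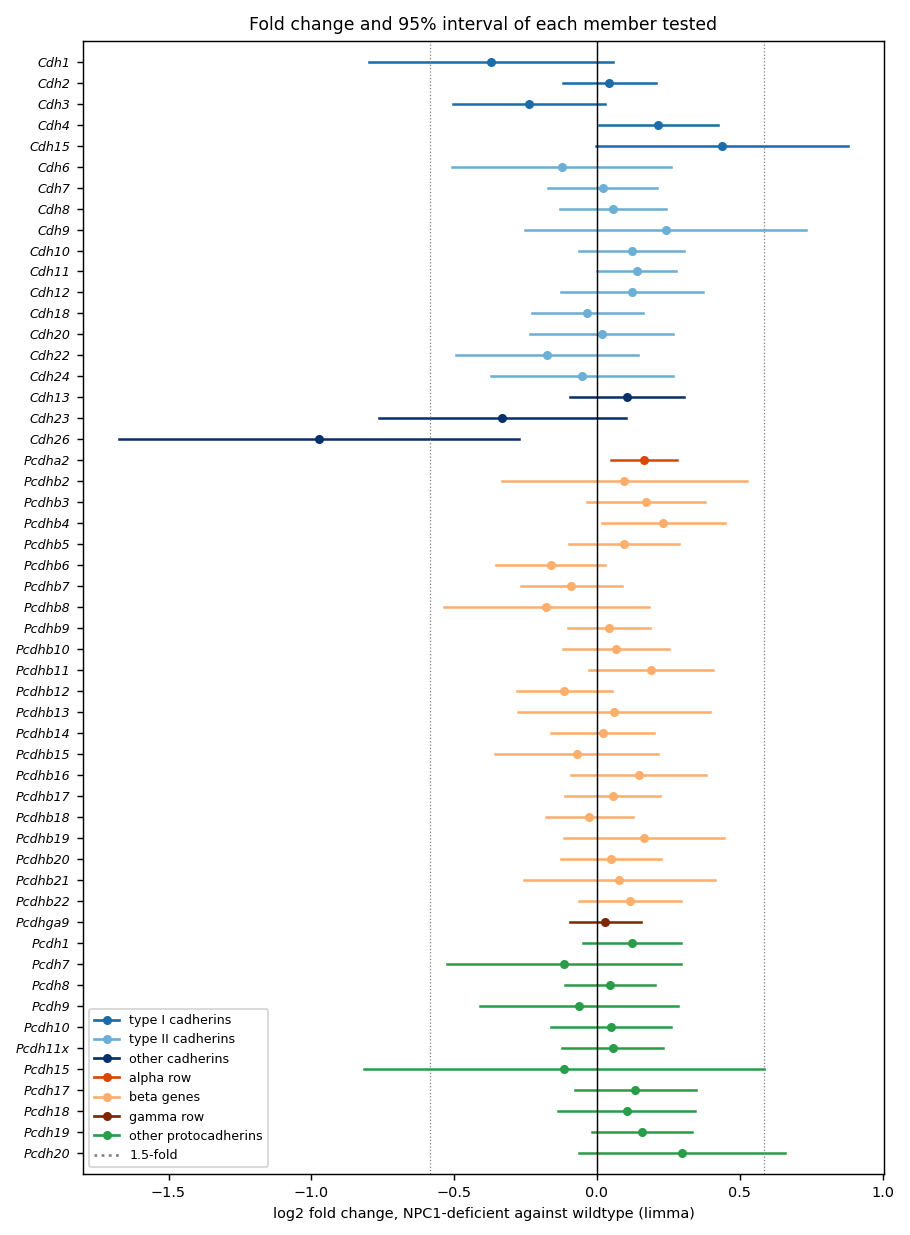
Log2 fold change of NPC1-deficient against wildtype (point) with its 95% interval (line) from limma for the 53 members tested, coloured by class, with dotted lines at 1.5-fold. The intervals of 46 members stay between the dotted lines, and that of Cdh26, from -1.67 to -0.27, reaches farthest from 0.

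Among the 5 type I classical cadherins, none passed the test, 3 had a positive log2 fold change and the class median was 0.04. Cdh2, N-cadherin, the main classical cadherin of neurons, was the highest at 491 reads per kb and read 4314, 4007, 3841 and 3451 across wildtype 1 to 4, against 3582, 4278, 4102 and 4101 across NPC1-deficient 1 to 4. The groups overlapped over most of their range (log2 fold change 0.04, SE 0.07, limma adjusted p = 0.995). Cdh4, R-cadherin, first described in retina, read 1219.7, 1140.3, 1226 and 950.0 across wildtype 1 to 4, against 1361, 1458, 1142 and 1298 across NPC1-deficient 1 to 4. Its highest 3 values were all NPC1-deficient, but NPC1-deficient 3 lay among the wildtype libraries (log2 fold change 0.22, SE 0.09, limma adjusted p = 0.693).

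Cdh15, M-cadherin, best known from muscle, read 153, 186, 91.4 and 99.6 across wildtype 1 to 4, against 158, 169, 169 and 194 across NPC1-deficient 1 to 4. Wildtype 3 and 4 were low and the other 6 libraries lay close together, so the log2 fold change of 0.44 over all 8 libraries held -0.04 from libraries 1 and 2 and 0.92 from libraries 3 and 4 (SE 0.20, limma adjusted p = 0.749). Taken alone, libraries 3 and 4 gave Cdh15 a limma adjusted p of 0.0194. It was the only one of 53 members called in that fit, beside 335 of 15386 genes. The difference between the sets did not pass (limma interaction adjusted p = 0.153).

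Cdh3, P-cadherin, read 114, 106, 101 and 103 across wildtype 1 to 4, against 86.2, 92.1, 82.9 and 98.1 across NPC1-deficient 1 to 4. Every NPC1-deficient value was below every wildtype value, by a narrow gap (log2 fold change -0.24, SE 0.12, limma adjusted p = 0.804). Cdh1, E-cadherin of epithelia, read 83.2, 80.7, 93.2 and 68.2 across wildtype 1 to 4, against 88.0, 57.0, 64.3 and 46.5 across NPC1-deficient 1 to 4. It had the lowest fold change of the class, with NPC1-deficient 1 inside the wildtype range (log2 fold change -0.37, SE 0.20, limma adjusted p = 0.823). Both were far below Cdh2 per length, at 22.3 reads per kb for Cdh3 and 15.9 for Cdh1. The 5 pigment epithelium markers summed to between 56.5 and 67.1 for wildtype and between 65.0 and 80.8 for NPC1-deficient libraries, and so did not move the way Cdh3 and Cdh1 did, while the rod, endothelial, horizontal cell and glial sums given above did. The part of other cells in these values was not tested.

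The type II classical cadherins had 11 of 12 members tested and none called. The fold change was positive for 7, with a median of 0.02. Cdh18 at 160.5, Cdh11 at 148, Cdh8 at 144, Cdh20 at 125 and Cdh7 at 119.8 reads per kb led the class. Cdh11, also known from connective tissue, read 1209, 1309.9, 1277 and 1219 across wildtype 1 to 4, against 1435, 1489, 1322 and 1284 across NPC1-deficient 1 to 4. NPC1-deficient values were at the upper end but overlapped (log2 fold change 0.14, SE 0.06, limma adjusted p = 0.739). The 8 pericyte and fibroblast markers summed to 426, 349, 344 and 362 across wildtype 1 to 4, against 539.9, 521, 351 and 268 across NPC1-deficient 1 to 4. NPC1-deficient 1 and 2 were highest for the sum and for Cdh11. Cdh11 was lowest in wildtype 1, where the sum was 426, and the sum was lowest in NPC1-deficient 4, where Cdh11 read 1284. In NPC1-deficient 1, Col1a1 read 29.9 and Col1a2 75.3, against at most 5.45 in the other libraries. The part of these cells in Cdh11 was not tested. Cdh8, used by retinal bipolar cells to find their layer, read 1126, 1082, 1184 and 977 across wildtype 1 to 4, against 1101, 1322, 1049 and 1082 across NPC1-deficient 1 to 4. NPC1-deficient 2 was the highest library and the other 3 lay inside the wildtype range (log2 fold change 0.06, SE 0.09, limma adjusted p = 0.995).

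Cdh18, a cadherin of the central nervous system, read 784, 719.5, 778 and 671 across wildtype 1 to 4, against 778, 786, 617 and 712 across NPC1-deficient 1 to 4. The groups overlapped over most of their range (log2 fold change -0.03, SE 0.09, limma adjusted p = 0.995). Cdh10, a neuronal cadherin, read 937, 933, 1022 and 955 across wildtype 1 to 4, against 1199.7, 1113, 976 and 917 across NPC1-deficient 1 to 4. NPC1-deficient 1 and 2 were high, 3 lay among the wildtype values and 4 was the lowest library (log2 fold change 0.12, SE 0.08, limma adjusted p = 0.929). Cdh6, which marks ganglion cells of non-image-forming pathways, was low per length at 9.99 reads per kb and read 98.0, 83.8, 118 and 76.3 across wildtype 1 to 4, against 80.8, 108, 70.9 and 84.7 across NPC1-deficient 1 to 4, with overlap of the groups (log2 fold change -0.12, SE 0.18, limma adjusted p = 0.995).

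Cdh9, the partner of Cdh8 in the layering of bipolar axons, was the lowest type II member tested, at 5.57 reads per kb. It read 18.2, 15.1, 18.6 and 19.7 across wildtype 1 to 4, against 22.7, 25.0, 21.8 and 16.5 across NPC1-deficient 1 to 4. The groups overlapped through NPC1-deficient 4 (log2 fold change 0.24, SE 0.23, limma adjusted p = 0.983), and 6.33% of its exon length is overlapped by a gene on the other strand. Cdh22, also a brain cadherin, read 318, 292, 294 and 274 across wildtype 1 to 4, against 366, 243, 216 and 239 across NPC1-deficient 1 to 4. NPC1-deficient 1 was the highest library and the other 3 lay below all wildtype values (log2 fold change -0.18, SE 0.15, limma adjusted p = 0.964). The remaining tested members were Cdh7, Cdh12, Cdh20 and Cdh24, with log2 fold changes between -0.05 (Cdh24) and 0.12 (Cdh12).

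The other numbered cadherins were Cdh13, Cdh23 and Cdh26, besides Cdh17 under the minimum. Cdh13, T-cadherin, which is held in the membrane by a lipid anchor and has no cytoplasmic tail, was among the 10 highest members per length at 287 reads per kb. It read 3198, 2851, 3347 and 3005 across wildtype 1 to 4, against 3918, 3587, 3043 and 2881 across NPC1-deficient 1 to 4. NPC1-deficient 1 and 2 were the highest libraries and 3 and 4 lay inside the wildtype range (log2 fold change 0.11, SE 0.09, limma adjusted p = 0.971).

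Cdh26, best known from epithelia, lies on chromosome 2 at 178430531 to 178487366 of the plus strand (mm10) and was close to the minimum level. It read 20.5, 18.2, 13.1 and 18.8 across wildtype 1 to 4, against 8.17, 5.0, 14.2 and 8.26 across NPC1-deficient 1 to 4. NPC1-deficient 3 lay above wildtype 3, and the other 3 NPC1-deficient libraries lay below all wildtype libraries. Its group means were 17.6 ± 3.22 for wildtype and 8.90 ± 3.83 for NPC1-deficient libraries (SD, n = 4), the largest fold change of any member tested (log2 fold change -0.97, SE 0.32, limma adjusted p = 0.381). It was negative within both library sets, at -1.45 in libraries 1 and 2 and -0.49 in libraries 3 and 4.

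Cdh23, the upper part of the tip link in hair cells and also present in photoreceptors, read 26.2, 36.3, 28.9 and 38.6 across wildtype 1 to 4, against 25.4, 26.0, 26.2 and 23.7 across NPC1-deficient 1 to 4. All 4 NPC1-deficient values were below all wildtype values, the nearest being wildtype 1 (log2 fold change -0.33, SE 0.20, limma adjusted p = 0.892). Pcdh15, its binding partner in the tip link, read 39.9, 36.3, 27.0 and 26.0 across wildtype 1 to 4, against 30.9, 47.0, 14.2 and 35.1 across NPC1-deficient 1 to 4. Its range in NPC1-deficient libraries enclosed the wildtype range (log2 fold change -0.12, SE 0.32, limma adjusted p = 0.995). Cdh23 stood at 1.71 and Pcdh15 at 1.35 reads per kb, the lowest of the tested members. The rod marker sums were 7000, 2957, 4118 and 2685 across wildtype 1 to 4, against 2304, 1620, 1964.5 and 1830 across NPC1-deficient 1 to 4. Among wildtype libraries the rod sum was highest in wildtype 1, where Cdh23 was lowest. The microglial sums were 3559, 9666, 8367 and 14436 across wildtype 1 to 4, against 4109, 3796, 3885 and 2562 across NPC1-deficient 1 to 4. Among wildtype libraries they were lowest in wildtype 1 and highest in wildtype 4, as was Cdh23. The part of these cells in Cdh23 and Cdh26 was not tested.

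The table lists the alpha cluster under 1 entry named Pcdha2 and the gamma cluster under 1 entry named Pcdhga9. Their identifiers, ENSMUSG00000007440 and ENSMUSG00000023036, are named Pcdha11 and Pcdhgc4 in GENCODE M21. In that annotation 53.4% and 37.9% of their exon length is shared with other genes of the same cluster on the same strand. Which exons the authors' entries counted is not given in the sources used here, so the values are given for the clusters without assigning them to an isoform or to a length.

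The alpha entry read 18847, 19558, 19843 and 17475 across wildtype 1 to 4, against 21327, 22300.3, 20128 and 21153 across NPC1-deficient 1 to 4. Every NPC1-deficient library was above every wildtype library, the nearest pair being NPC1-deficient 3 and wildtype 3. The group means were 18931 ± 1057 in wildtype and 21227 ± 890.0 in NPC1-deficient libraries (SD, n = 4), a small difference that had the smallest adjusted p of any member (log2 fold change 0.17, SE 0.05, limma adjusted p = 0.347). It was positive in both library sets, at 0.18 and 0.15. The gamma entry read 20802, 18750.1, 20408 and 18504 across wildtype 1 to 4, against 20668, 21309, 19131 and 18939 across NPC1-deficient 1 to 4. Here the groups overlapped over most of their range (log2 fold change 0.03, SE 0.06, limma adjusted p = 0.995). The 95% interval ran from -0.10 to 0.15 for the gamma entry and from 0.05 to 0.28 for the alpha entry, the narrowest intervals of the 53 members tested.

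Of the 22 beta genes, 21 were tested and none was called. Fold changes were positive for 15, with a median of 0.06, and all 21 intervals lay within 1.5-fold. The summed beta level was 16736 ± 853 in wildtype and 17266 ± 1056 in NPC1-deficient libraries (SD, n = 4). Levels differed between beta genes far more than between genotypes: from 44.1 reads per kb for Pcdhb21 to 747 for Pcdhb9, with Pcdhb1 at 0.63. These comparisons carry a limit of the family, since up to 11.3% of the 50-base windows of a beta gene other than Pcdhb12 also occur in another gene. For Pcdhb12, 63.5% of the exon length is overlapped by Gm37446 on the other strand, and the library kit does not mark strand.

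Pcdhb9 took the largest share of the summed beta reads, with 13.4% ± 0.70 in wildtype and 13.4% ± 1.07 in NPC1-deficient libraries (SD, n = 4). Pcdhb17 followed with 12.7% ± 0.84 and 12.8% ± 0.89. The 4 largest shares together ran from 39.1% to 41.7% over the 8 libraries. Pcdhb9 read 2195, 2083, 2504 and 2219 across wildtype 1 to 4, against 2473, 2277, 2170.5 and 2333 across NPC1-deficient 1 to 4, and its groups overlapped (log2 fold change 0.04, SE 0.07, limma adjusted p = 0.995). Pcdhb17 read 1917, 2285, 2154 and 2119 across wildtype 1 to 4, against 1930.2, 2438, 2184 and 2262 across NPC1-deficient 1 to 4, again with overlap (log2 fold change 0.05, SE 0.08, limma adjusted p = 0.995).

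**Figure D3:**
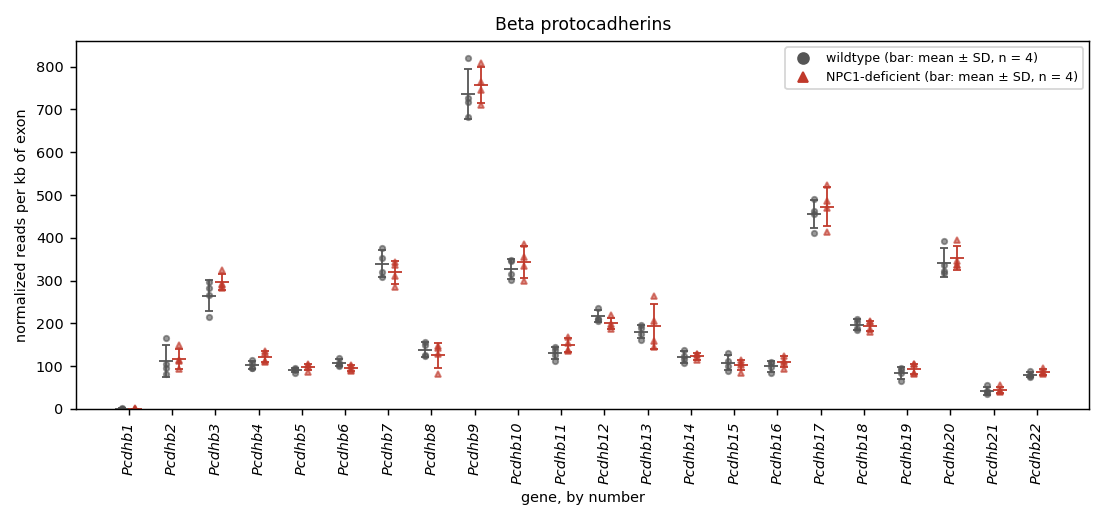
Normalized reads per kb of exon for the 22 beta protocadherins by number, with circles for wildtype libraries, triangles for NPC1-deficient libraries, and bars for the group mean ± SD (n = 4). The order of the genes by level, from Pcdhb9 near 747 down to Pcdhb1 near 0, can be read in both groups.

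Pcdhb4 read 356, 359, 429 and 400.1 across wildtype 1 to 4, against 418, 506, 408 and 484 across NPC1-deficient 1 to 4. The highest 2 values were NPC1-deficient and the highest wildtype library lay above the lower 2 (log2 fold change 0.23, SE 0.10, limma adjusted p = 0.658). Pcdhb11 read 644, 614, 562 and 493 across wildtype 1 to 4, against 611, 746, 596 and 681 across NPC1-deficient 1 to 4, with NPC1-deficient 2 and 4 above the wildtype range (log2 fold change 0.19, SE 0.10, limma adjusted p = 0.826). Pcdhb3 read 1009, 812, 1121 and 1070.3 across wildtype 1 to 4, against 1094, 1229, 1072 and 1103 across NPC1-deficient 1 to 4, where wildtype 2 was the lowest and NPC1-deficient 2 the highest library (log2 fold change 0.17, SE 0.09, limma adjusted p = 0.859). On the other side, Pcdhb6 read 407, 447, 379 and 384 across wildtype 1 to 4, against 380.2, 344, 385 and 335 across NPC1-deficient 1 to 4. Its groups overlapped at their edges (log2 fold change -0.16, SE 0.09, limma adjusted p = 0.844). Pcdhb8 read 521, 439, 549 and 428 across wildtype 1 to 4, against 287, 514, 493 and 451 across NPC1-deficient 1 to 4, where NPC1-deficient 1 alone was low (log2 fold change -0.18, SE 0.16, limma adjusted p = 0.981). The log2 fold changes of the other 14 beta genes tested apart from Pcdhb9 and Pcdhb17 lay between -0.11 (Pcdhb12) and 0.17 (Pcdhb19).

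The protocadherins outside the clusters had 11 of 12 members tested and none called. The fold change was positive for 8, with a median of 0.05. Pcdh8, a protocadherin of synapses whose expression follows neuronal activity, was the highest at 750.0 reads per kb and read 3308, 3285, 3587 and 3197 across wildtype 1 to 4, against 3778, 3716, 3338 and 3018 across NPC1-deficient 1 to 4. The groups overlapped, with NPC1-deficient 4 the lowest library (log2 fold change 0.05, SE 0.07, limma adjusted p = 0.995). Of its exon length, 9.61% is overlapped by Gm9748 on the other strand. Pcdh10, which takes part in axon growth through the actin machinery, read 8483, 8357, 8055 and 6766 across wildtype 1 to 4, against 8827, 9498, 7226 and 7286 across NPC1-deficient 1 to 4. NPC1-deficient 1 and 2 were the highest libraries, and 3 and 4 lay among the lower ones (log2 fold change 0.05, SE 0.10, limma adjusted p = 0.995).

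Pcdh19 and Pcdh11x are X-linked, and Pcdh19 is known from an epilepsy of girls. Pcdh19 read 3172, 3207, 3672 and 2957 across wildtype 1 to 4, against 3883, 3932, 3503 and 3186 across NPC1-deficient 1 to 4. NPC1-deficient values were at the upper end and overlapped through NPC1-deficient 3 and 4 (log2 fold change 0.16, SE 0.08, limma adjusted p = 0.806). Pcdh11x read 3295, 3678, 3572 and 3137 across wildtype 1 to 4, against 3623, 4078, 3115 and 3432 across NPC1-deficient 1 to 4, with overlap (log2 fold change 0.05, SE 0.08, limma adjusted p = 0.995). The mix of sexes differed between libraries: Xist, expressed in females, read 595, 18.2, 238 and 164 across wildtype 1 to 4, against 68.1, 3.0, 1.09 and 0 across NPC1-deficient 1 to 4. Eif2s3y, a gene of the Y chromosome, read 9.12, 966, 403 and 585 across wildtype 1 to 4. Across NPC1-deficient 1 to 4 it read 730, 1370, 1601 and 1549. Sex was therefore not balanced between the genotypes, which holds for every member and not for the 2 X-linked ones alone. The part of sex in the values of the members was not tested.

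Pcdh20, a little studied protocadherin, read 225, 277, 398 and 395 across wildtype 1 to 4, against 425, 396, 353 and 376 across NPC1-deficient 1 to 4. Wildtype 1 and 2 were low and the other 6 libraries lay between 353 and 425 (log2 fold change 0.30, SE 0.17, limma adjusted p = 0.862). Pcdh17, found at synapses of the basal ganglia, read 1002, 886, 987 and 826 across wildtype 1 to 4, against 962, 1212, 893 and 1008 across NPC1-deficient 1 to 4, and NPC1-deficient 2 was the highest library (log2 fold change 0.13, SE 0.10, limma adjusted p = 0.946). Pcdh9 read 1239, 1210.0, 1484 and 1002 across wildtype 1 to 4, against 1411, 1484, 921 and 969.6 across NPC1-deficient 1 to 4, with NPC1-deficient 3 and 4 the lowest libraries (log2 fold change -0.06, SE 0.16, limma adjusted p = 0.995). Pcdh7 read 1148, 1102, 1356 and 844 across wildtype 1 to 4, against 983, 1514, 749 and 941 across NPC1-deficient 1 to 4. NPC1-deficient 2 and 3 were its highest and lowest libraries (log2 fold change -0.12, SE 0.19, limma adjusted p = 0.995), and 21.1% of its exon length is overlapped by 4932441J04Rik on the other strand. Pcdh1 and Pcdh18 had log2 fold changes of 0.12 and 0.10.

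Over all 53 members tested, 36 had a positive log2 fold change (67.9%), beside 52.0% of all genes, and the median was 0.05 beside 0.0050 for all genes. This lean rested largely on NPC1-deficient 2. That library was the highest of the 8 libraries for 25 of the 53 members, beside 14.7% of all genes. There, 44 members (83.0%) were above their own mean, beside 51.0% of all genes. Wildtype 4 was the lowest library for 13 members, and only 12 were above their mean there. Wildtype 3 went the other way: 41 members (77.4%) were above their mean there, beside 50.3% of all genes. It was the highest library for 11 members, beside 9.41% of all genes. Without NPC1-deficient 2, 25 of 53 members were positive with a median of -0.0037, beside 50.6% of all genes, and the beta genes went from 15 to 10 of 21. Without wildtype 4, 32 of 53 were positive with a median of 0.02.

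**Figure D4:**
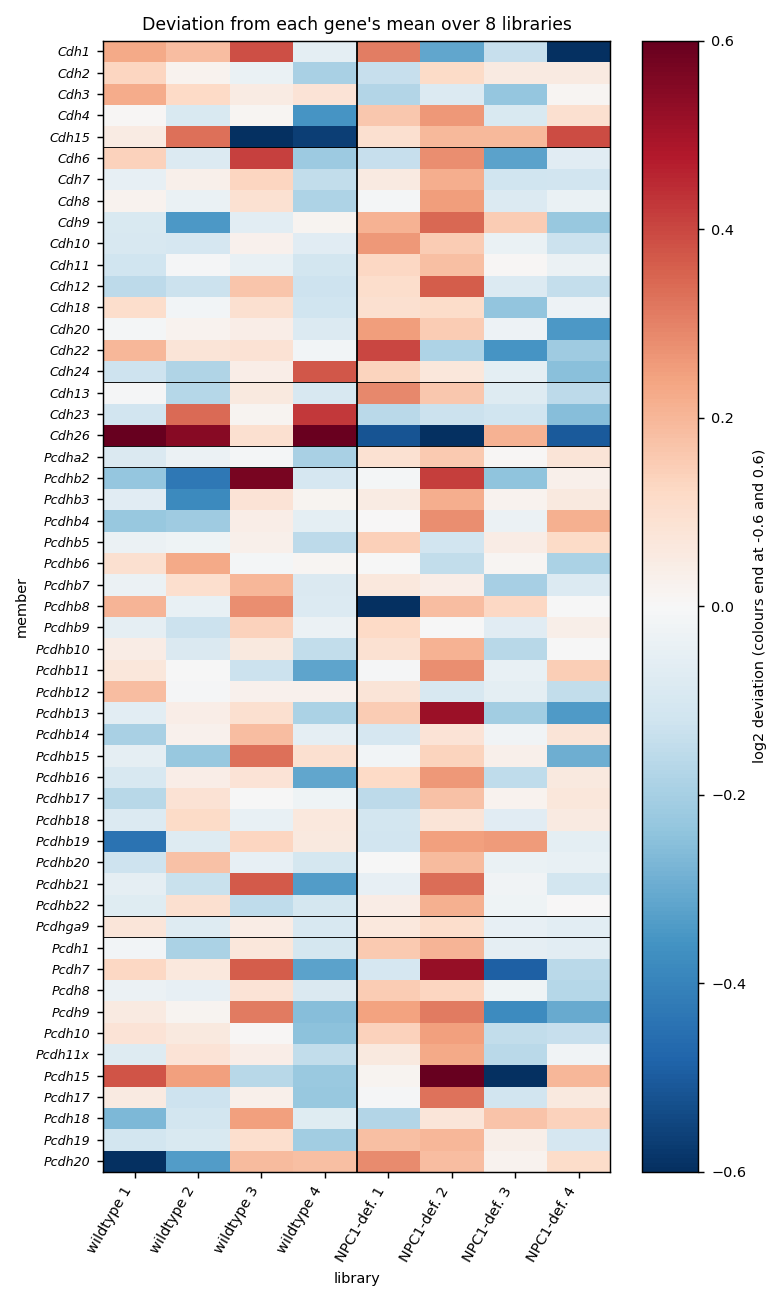
Log2 deviation of each library (columns) from the mean of that gene over 8 libraries, for the 53 members tested (rows, in order of class, with lines between classes); red is above and blue below the mean, and colours end at -0.6 and 0.6. The column of NPC1-deficient 2 is red for 44 of the 53 members and that of wildtype 4 is blue for all but 12, while wildtype 3 is red for 41 and NPC1-deficient 1, 3 and 4 for 33, 16 and 20 members.

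The deviation of libraries also moved with gene length across all genes, a check chosen after the data were seen. In NPC1-deficient 2 the median deviation ran from -0.09 for the 2527 tested genes of up to 2 kb of exon to 0.10 for the 833 genes over 12 kb. Wildtype 4 ran the other way, from 0.05 to -0.11, as did NPC1-deficient 3, from 0.07 to -0.10. Members with a usable length had a median exon length of 4.71 kb, beside 4.23 kb for all genes tested, and none had 2 kb or less. Wildtype 1 also ran upward, from -0.04 to 0.09, yet the median deviation of the members there was -0.04. The part of length in the lean of the members was not tested.

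The 2 library sets gave different pictures. Within libraries 1 and 2, 42 of 53 members were positive (79.2%) with a median of 0.14, and within libraries 3 and 4, 16 were (30.2%) with a median of -0.04. Over all genes the shares were 50.3% and 50.2%. The change of side was plainest in 2 classes: type II cadherins were positive for 10 of 11 and then 1 of 11 members, and the protocadherins outside the clusters for 11 of 11 and then 3 of 11. The same sign in both sets was seen for 23 of 53 members (43.4%), beside 46.4% of all genes.

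The test of that difference, the interaction of genotype and set in limma, called 0 of 53 members and 12 of 15386 genes. At an unadjusted p under 0.05 in it there were 14 of 53 members and 2063 of 15386 genes. The share was larger among the members, whose values all come from the same 8 libraries. Pcdh20 came nearest, at 0.72 within libraries 1 and 2 and -0.12 within libraries 3 and 4 (limma interaction adjusted p = 0.0954). The difference between the sets for Pcdh20 was -0.84 with all libraries and -0.99 without wildtype 2. For Pcdh9 it was -0.61 with all libraries and -0.89 without wildtype 4. Calls over all genes were not counted in the interaction fits without 1 library. Leaving out wildtype 2 or 4 leaves 1 wildtype library in a set, which is then assumed to vary like the other libraries. In libraries 1 and 2, members lay above their own mean for 33 and 44 of 53 in the NPC1-deficient libraries and for 21 and 23 in the wildtype libraries. In libraries 3 and 4 they did so for 16 and 20 in the NPC1-deficient libraries, for 41 in wildtype 3 and for 12 in wildtype 4. Over all genes the share above the mean was 49.8% to 51.0% in each library. The negative lean of that set thus goes with wildtype 3 and both NPC1-deficient libraries, and wildtype 4 runs against it.

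**Figure D5:**
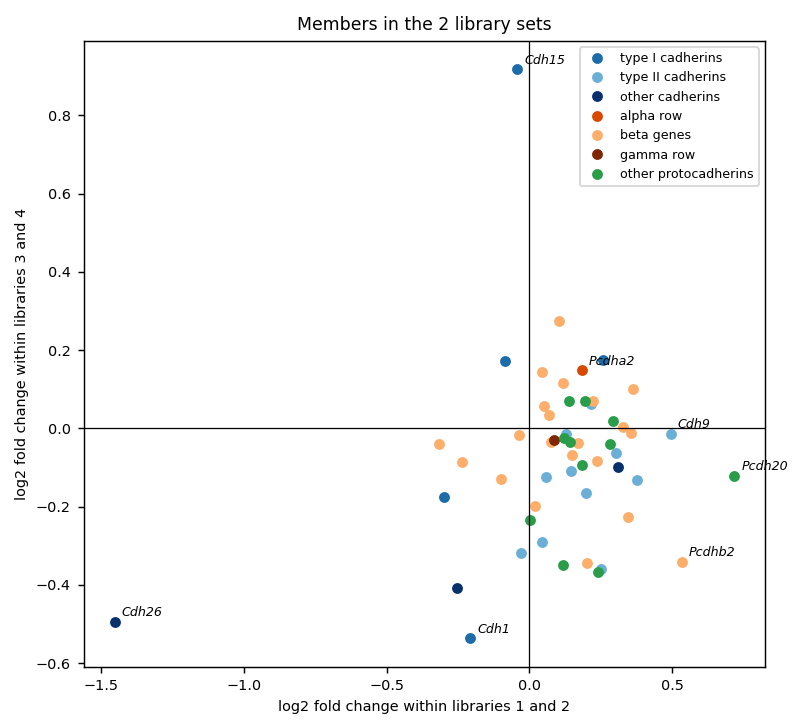
Log2 fold change of each of the 53 members within libraries 1 and 2 (horizontal) and within libraries 3 and 4 (vertical), coloured by class. Points gather to the right of 0 and below 0 (42 are positive on the horizontal and 16 on the vertical axis), with Cdh26 low on both, Cdh15 high on the vertical axis alone and Pcdh20 high on the horizontal axis alone.

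Genes that work with cadherins were taken from a list of 72, of which 67 were in the table, 59 were tested and 0 were called by limma, beside 0.104% of all genes. At an unadjusted p under 0.05 there were 3 (5.08%), beside 6.76% of all genes. edgeR and DESeq2 called 0 each, beside 0.104% and 1.60% of all genes. The fold change was positive for 24 and negative for 35, with a median of -0.01. Among 14 catenins and plaque proteins, which link cadherins to the cytoskeleton, 13 were negative, but with a median of only -0.04. Pkp1, plakophilin 1 of desmosomes, had the largest difference, from 179 ± 66.0 in wildtype to 52.6 ± 36.4 in NPC1-deficient libraries (SD, n = 4), at a log2 fold change of -1.98 (SE 0.47, limma adjusted p = 0.126). Within libraries 1 and 2 alone it was called, at -2.98 (limma adjusted p = 0.000919), in a fit that called 57 of 15370 genes. Ctnna1, alpha-catenin, stood at -0.22 (SE 0.11, limma adjusted p = 0.787).

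None of the 11 protocadherin effectors was called. Cyfip1, of the WAVE complex that drives branched actin and is bound by Pcdh10, stood at -0.26 (SE 0.12, limma adjusted p = 0.751). None of the 14 genes of promoter choice and chromatin looping at the clusters was called either: Ctcf, the insulator protein that brings cluster promoters to their enhancers, stood at -0.11 (SE 0.07, limma adjusted p = 0.905). Of the 7 genes of cadherin shedding, 6 were positive, 1 was negative and none was called, with Furin, a protease that matures cadherin precursors, at -0.14 (SE 0.10, limma adjusted p = 0.924). In the wider superfamily 13 of 20 listed genes with entries were tested, and Dchs1, an atypical cadherin that binds Fat4, had the largest positive difference at 0.38 (SE 0.13, limma adjusted p = 0.393). Celsr3, which guides axon tracts, stood at 0.22 (SE 0.09, limma adjusted p = 0.640).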

How the data were processed

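RNA of purified retinal ganglion cells at postnatal day 8 was sequenced from 4 NPC1-deficient and 4 wildtype libraries, which per the labels' protocols were prepared with the TruSeq v2 kit, a kit that leaves strand unmarked. The submitters' processing notes list CASAVA 1.8.2, DESeq2 1.0.19 and HTSeq 0.5.4p3 and the build mm10, with no role for any of them. For the aligner and the gene annotation, the release is not given in the sources used here. Each deposited value is a normalized signal: read counts that the authors divided by 1 size factor per library. All 199536 values were whole multiples of 1 read within 1e-06 (100%), so whole reads were recovered. No column of per-sample values went unmatched.

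Libraries were grouped by title and description. Genes with a mean of at least 10 (15386, with 9556 removed) were fitted as log2(value + 1), which understates the change of low genes, with limma 3.58.1 in R 4.3.3 (mean-variance trend, no covariate) and Benjamini-Hochberg adjustment at 0.05 over all of them. Alternatives were other pseudocounts, filters and scalings, robust moderation, a replicate block, the library set as a term or alone, the grouping of the characteristics field, each library left out, and, on recovered reads, edgeR 4.0.16 and DESeq2 1.42.0. On the recovered reads edgeR called 16 genes and DESeq2 called 246. The limma fit was tested on simulated data. Exon lengths, overlaps and shared 50-base windows came from GENCODE M21, which holds all 57 members and gives 55 the same symbol. Promoters came from RefSeq on GRCm38.p6.

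Same-numbered libraries did not deviate together (correlations of -0.07 to -0.02), so the fit reported used no pairing by number. These correlations cannot exclude a pairing, since deviations particular to single libraries can hide one. A replicate block is among the alternatives. Members named are those that did not overlap between groups, up to 5 of a class by level per kb and 3 in each direction by smallest p, and a list fixed for the retina, and up to 3 partners of each list by smallest p. Of these, not all are described in full, and Cdh9 and Pcdhb8 are described although they fall outside this rule. The members, the lists and the rule were chosen with earlier results of these data known.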

Additional observations from a re-analysis of the deposited data

Results flagged for a closer look

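In 4 of the 106 groups of 4 libraries, 1 library lay far from the other 3 by Dixon's criterion, which chance alone meets in about 1 in 20 groups. Cdh12 read 698 in wildtype 3, with the other wildtype libraries between 559 and 571. Pcdhb12, whose exons are mostly overlapped by a gene on the other strand, read 718 in wildtype 1, with the others between 627 and 641. In NPC1-deficient 2, Pcdhb20 read 1408, with the others between 1197 and 1231, and Pcdhb21 read 259, with the others between 190.0 and 202. NPC1-deficient 2 is also the library that was highest for 25 of the 53 members tested.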

How the results depend on the processing

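The count of 0 called members was also found in 20 of 22 alternatives, and the count of positive members stayed within 1.5 times of 36 in 20 of 22. Libraries 3 and 4 alone gave 1 called member (Cdh15, 0.92, limma adjusted p = 0.0194) and 16 positive. Groups from the characteristics field gave 1 called member (Pcdh10, turned to -0.26, limma adjusted p = 0.0463), 15 positive members, 4 called partner genes (Cyfip2, Pkp4, Smc1a and Mllt4, now Afdn), and an Npc1 difference of -0.18 (limma adjusted p = 0.951). Libraries 1 and 2 alone gave 1 called partner gene, Pkp1. Without 1 library, 0 members and 0 partner genes were called, 25 (without NPC1-deficient 2) to 40 members were positive, and Npc1 lay between -3.51 and -3.16. The interaction with the library set moved with the library left out, as given above for Pcdh20 and Pcdh9. The causes were not tested. With the replicate block, 0 members were called and 36 were positive, and 34 genes were called over the whole table. Over all genes the calls, 16 in the fit reported, ranged from 10 with a minimum mean of 50 through 57 and 335 in the 2 library sets alone, 99 with the set as a term and 271 under the characteristics field to 246 with DESeq2, and from 2 to 144 without 1 library. No member changed sign under quantile or upper-quartile scaling, edgeR or DESeq2. Over all alternatives, 43 of 53 members had another sign at least once. With 4 libraries a group, the 95% interval of a member's log2 fold change had a median half-width of 0.21.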
